A study of Mus musculus with 18 samples.

Results

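Immediate early genes are the genes a cell switches on within minutes of a stimulus, without first making new protein. The 10 examined here were the AP-1 subunit genes Fos, Fosb, Jun, Junb and Jund, the transcription factor genes Egr1, Ier2 and Klf6, the phosphatase gene Dusp1 and the antiproliferative gene Btg2. All 10 were found in both deposited expression tables, which held 19780 genes for LSK and 18428 genes for CMP. The genes were chosen by symbol, in a list drawn up with results of these data already known, and which measured values led to it is not stated. The p-values below therefore place each gene among all genes tested and are no independent support for the choice.

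The study profiled RNA from 18 sorted bone marrow samples of female mice, 3 in each of 6 groups. NZBW/F1 mice (strain label NZB/W F1) develop a spontaneous lupus-like disease and were taken at a prediseased stage (F1-P, 12 weeks) or with overt lupus (F1-L, 28 to 36 weeks), while C57BL/6 mice of matched age served as young (B6-Y, 12 weeks) and old (B6-O, 28 to 36 weeks) controls. LSK cells, the lineage-negative Sca-1+ c-Kit+ fraction that holds stem and multipotent progenitor cells, were sorted from all 4 kinds of mice (12 samples), and common myeloid progenitors (CMP, c-Kit+ CD34+ CD16/32-) from the NZBW/F1 mice (6 samples). The labels name no treatment and no engineered allele. F1-L and F1-P differ in age as well as in disease, and NZBW/F1 and C57BL/6 differ in their whole genetic background, so disease and age, or disease and strain, cannot be told apart within a single comparison. The labels do not say whether replicates came from separate or pooled mice, and the study counts several per CMP replicate without naming the unit, so the p-values measure the spread between these samples only.

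AP-1 is a dimer of a Jun protein with a Fos protein or with a second Jun protein, and it binds a short palindromic DNA element in the control regions of many genes of growth, survival and inflammation. Growth factors, cytokines and cell stress reach the immediate early genes through MAP kinases, which act on factors already sitting on their promoters, and the same signal induces brakes on itself, such as the phosphatase DUSP1, which takes phosphate off MAP kinases. In blood stem and progenitor cells these genes respond to cytokines and to the handling of the cells, and tissue dissociation and cell sorting are well known to induce them. The time between death of the animal and lysis of the sorted cells was not given in the sources used here, so the part of sorting in the values below was not tested.

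Values are the deposited normalized values, CPM, reads divided by a library size that had been scaled between samples, and are called values below. Whole reads could be recovered from them, in totals between 23772252 and 28493747 for LSK and between 20001328 and 24761060 for CMP. Recovered reads per member ran in LSK from 1474 for Jund in B6-O replicate 2 to 105731 for Fosb in F1-P replicate 2, and in CMP from 614 for Btg2 in F1-L replicate 2 to 24830 for Fosb in F1-P replicate 2. Some libraries stood apart. Immunoglobulin genes took 16.8% to 36.6% of reads in NZBW/F1 LSK and 0.301% to 4.76% in C57BL/6 LSK, the highest of these being B6-O replicate 3, and at most 0.255% in CMP. Of the genes behind the sort, Kit ranged from 257 to 657 in LSK, while Ly6a, which encodes Sca-1, ranged from 35.5 to 113 in C57BL/6 LSK, from 293 to 879 in NZBW/F1 LSK and from 1.14 to 6.70 in CMP, a population for which the study methods list Sca-1+ among the gates. In bulk samples such as these, fewer expressing cells and less RNA per cell cannot be told apart.

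By the GENCODE M21 annotation of GRCm38, Fos lies at chr12:85473890-85477273 on the plus strand, Fosb at chr7:19302696-19310051, Jun at chr4:95049034-95052222, Junb at chr8:84974484-84978718, Ier2 at chr8:84661331-84662852 and Btg2 at chr1:134075170-134079120 on the minus strand, and Jund at chr8:70698949-70700616 and Klf6 at chr13:5861482-5870394 on the plus strand. The promoters of these genes are where the signal arrives. RefSeq promoters (GRCm38.p6, from 250 bases before to 50 bases after the annotated start) were matched by symbol for 8 of the 10 genes, all but Egr1 and Ier2. The core of the cyclic AMP response element, TGACG, was searched on both strands. It occurred in 5 of the 8 (Fos, Fosb, Junb, Btg2 and Dusp1), against 5681 of 27025 promoters in the table. The full palindrome TGACGTCA, which contains that core, occurred in Btg2 and Dusp1 and in 1.88% of all promoters. A window of 100 bases is shown for each of the 5 genes because these are the members with that element, written 5′ to 3′ on the strand of the gene, with the element in capitals.
Fos, chr12:85473770-85473869, plus strand: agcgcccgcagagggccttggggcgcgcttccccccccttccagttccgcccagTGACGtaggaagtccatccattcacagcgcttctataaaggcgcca
Fosb, chr7:19310066-19310165, minus strand: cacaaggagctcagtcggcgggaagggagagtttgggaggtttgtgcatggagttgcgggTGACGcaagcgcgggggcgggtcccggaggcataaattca
Junb, chr8:84978769-84978868, minus strand: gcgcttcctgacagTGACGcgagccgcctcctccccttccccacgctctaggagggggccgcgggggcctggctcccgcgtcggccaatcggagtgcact
Btg2, chr1:134079276-134079375, minus strand: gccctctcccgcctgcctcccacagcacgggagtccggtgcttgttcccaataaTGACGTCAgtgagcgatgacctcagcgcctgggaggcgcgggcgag
Dusp1, chr17:26508593-26508692, minus strand: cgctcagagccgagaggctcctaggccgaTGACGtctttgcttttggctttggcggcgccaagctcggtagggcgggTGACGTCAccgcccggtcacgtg
In Fos the element shown lay 66 to 62 bases before the start, and the promoter held another copy 129 to 125 bases before it. In Dusp1 and Btg2 the palindrome lay 143 to 136 and 166 to 159 bases before the start. No match to the CArG box (1.57% of all promoters), to the AP-1 element TGAGTCA (5.17%), to GCGTGGGCG (0.625%) or to CCGGAAGT (4.0%) was found in the 8 promoters, and GCGGGGGCG was found in Fosb alone (2.92%). Only exact matches were counted. Sequence more than 250 bases before the start and the promoters of Egr1 and Ier2 were not searched, so such elements may lie there. A match is a description of these letters in the C57BL/6 reference genome, and no allele of the NZB or NZW strains was read.

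The members were among the more strongly expressed genes of F1-P LSK. By the deposited value they ranked there from 8th (Fosb) to 766th (Klf6) of 19780 genes. In C57BL/6 LSK some ranked far lower, Jund as low as 4932nd in B6-O replicate 2. Per kilobase of exon model, where genes can be set against each other, the order of mean value in F1-P LSK was Fos (1140 ± 292, SD, n = 3), Jun (865 ± 245), Fosb (771 ± 227), Junb (633 ± 121), Ier2 (284 ± 29.1), Jund (248 ± 77.6), Egr1 (155 ± 63.9), Btg2 (116 ± 27.5) and Klf6 (60.6 ± 9.997). Neighbours among Fos, Jun, Fosb and Junb differed by less than the larger SD of the pair, as did Ier2 and Jund, and Egr1 and Btg2. Junb lay above Ier2 by more than their spread. In B6-Y LSK the order began with Junb (405 ± 83.5) and Fos (373 ± 126), with Jun (234 ± 118) and Fosb (228 ± 103) behind them. Dusp1 is left out of this order because its gene model in the annotation at hand is longer than the version the file names. By the deposited value, not scaled for length, Fosb ranked 8th to 9th of all genes in F1-P LSK and 51st to 853rd in F1-P CMP.

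**Figure D1:**
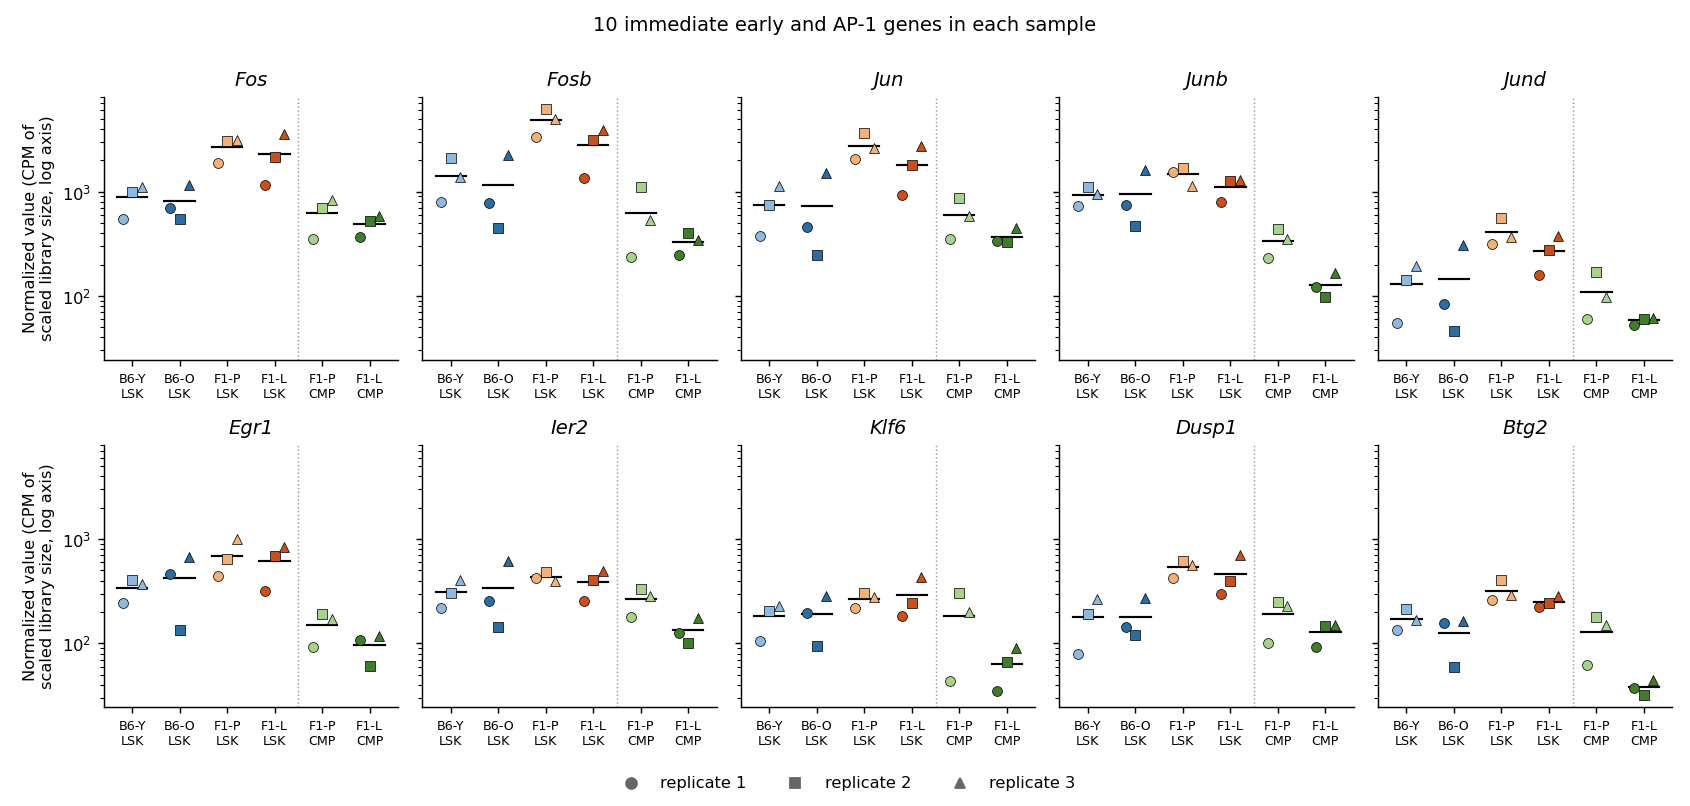
Deposited normalized value (log axis) of each of the 10 genes in every sample, by group, with marker shape giving the replicate number and a line at the mean of the 3 samples. For Fos, the F1-P LSK samples lay between 1891 and 3122 and the B6-Y LSK samples between 542 and 1100, and a dotted line sets apart the CMP samples, whose table was normalized separately.

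Prediseased NZBW/F1 mice were first compared with young C57BL/6 mice, the comparison free of overt disease. All 10 genes were higher in F1-P LSK. With limma on log2(value + 1), 6 of them (Fos, Fosb, Jun, Jund, Dusp1 and Btg2) passed both thresholds, a Benjamini-Hochberg adjusted p no higher than 0.05 and more than 1.5-fold change, which 10% (1442) of the 14380 genes tested passed in this direction and 16.2% in either. The values of 8 of the 10 did not overlap between the groups, against 17.4% of all genes tested. The median log2 fold change was 1.31, beside -0.04 over all genes tested.

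Fos, the founding partner of Jun in AP-1, had values of 542, 991 and 1100 in B6-Y replicates 1, 2 and 3 and of 1891, 3030 and 3122 in F1-P replicates 1, 2 and 3. Every F1-P sample lay above every B6-Y sample, with a log2 fold change of 1.64 ± 0.35 (SE; limma, adjusted p = 0.0163). Fosb, its close relative, had the highest value of the 10 before scaling for length, at 797, 2085 and 1385 in B6-Y and at 3341, 6170 and 4926 in F1-P. The log2 difference was 1.82 ± 0.43 (adjusted p = 0.0252).
Jun, the main dimer partner, had the largest estimate of the Jun genes. It measured 372, 746 and 1121 in B6-Y and 2059, 3603 and 2616 in F1-P, again without overlap, a log2 fold change of 1.99 ± 0.42 (limma, adjusted p = 0.0157). Jund, the Jun family gene usually held at a steady level, ran from 54.8 through 143 to 195 in B6-Y and measured 313, 560 and 368 in F1-P, a log2 fold change of 1.79 ± 0.44 (adjusted p = 0.0295). Junb, which often opposes Jun, was closer between the strains, with 729, 1112 and 952 in B6-Y and 1556, 1673 and 1143 in F1-P. Its groups did not overlap, but the F1-P value nearest to B6-Y exceeded the highest B6-Y value only slightly, and its log2 fold change of 0.65 ± 0.25 did not pass (adjusted p = 0.125). Jun and Jund overlap an antisense gene and Junb overlaps an exon of Prdx2 on the other strand. The Dusp1 model in the annotation at hand overlaps exons of Ergic1 on the other strand. Whether the shorter Dusp1 version behind the deposited values does so was not checked. The libraries were made with an Illumina TruSeq v2 mRNA kit, and the study methods do not say that strand was kept, so reads of these partners could not be told apart.
Dusp1, which dephosphorylates MAP kinases, read 79.9, 190 and 268 in B6-Y and 425, 623 and 569 in F1-P. The groups did not overlap and the log2 fold change was 1.73 ± 0.40 (limma, adjusted p = 0.0236). Btg2, which restrains cell division, stood at 136, 214 and 166 in B6-Y against 258, 403 and 294 in F1-P, a difference of 0.88 ± 0.22 on the log2 scale without overlap (adjusted p = 0.0314). The zinc finger gene Egr1 did not overlap between the groups, at 245, 404 and 368 in B6-Y and 438, 641 and 1004 in F1-P, but its log2 fold change of 0.98 ± 0.32 did not pass (adjusted p = 0.0749). Ier2 (0.52 ± 0.23, adjusted p = 0.164) and the Krüppel-like factor gene Klf6 (0.61 ± 0.29, adjusted p = 0.194) overlapped between the groups and did not pass.

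The count rested on few samples. Without F1-P replicate 2, or without F1-P replicate 3, none of the 10 passed in limma (4.24% and 4.72% of genes), although all remained higher with medians of 1.27 and 1.22. Without B6-Y replicate 1, the sample in which all 10 were lowest, 2 passed (Dusp1 and Jund, 6.65% of genes). Fitting all 12 LSK samples together left 3 (Fos, Dusp1 and Jun, 10.2% of genes), while count tests on the recovered reads called 6 (edgeR quasi-likelihood, 9.83% of genes), 7 (edgeR likelihood ratio, 11.4%) and 8 (DESeq2, 12.2%), all as higher.

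Old mice of both strains gave the second strain comparison, now with overt lupus in the NZBW/F1 mice. All 10 genes were again higher in F1-L LSK than in B6-O LSK, with a median log2 fold change of 1.18 beside -0.03 over all genes, but none passed both thresholds in limma, which 7.84% of 14381 genes passed in this direction. At an unadjusted p below 0.05 there were 3, Fos, Dusp1 and Btg2, against 14.8% of all genes in this direction, and 2, Dusp1 and Btg2, did not overlap between the groups, against 17.5%. Dusp1 had values of 142, 120 and 272 in B6-O replicates 1, 2 and 3 and of 296, 397 and 699 in F1-L, so that the lowest F1-L sample lay only just above the highest B6-O sample (log2 fold change 1.38 ± 0.40, limma, adjusted p = 0.0718). Btg2 measured 156, 60.0 and 165 in B6-O and 222, 242 and 284 in F1-L (1.09 ± 0.37, adjusted p = 0.111).
In Fos, B6-O replicate 3 reached the F1-L range. Its values were 699, 551 and 1160 in B6-O and 1148, 2159 and 3525 in F1-L (1.43 ± 0.48, limma, adjusted p = 0.104). For Jun the overlap was wide, with 456, 248 and 1493 in B6-O against 918, 1812 and 2721 in F1-L (1.58 ± 0.69, adjusted p = 0.194). Fosb behaved alike, at 776, 448 and 2239 in B6-O and 1336, 3095 and 3924 in F1-L (1.46 ± 0.67, adjusted p = 0.210). B6-O replicate 3 was the library with the highest C57BL/6 share of immunoglobulin reads, and without it 5 genes passed (Fos, Fosb, Jun, Jund and Dusp1, adjusted p from 0.0194 to 0.0460), as did 11.2% of genes. With it, DESeq2 called 3 (Fos, Dusp1 and Btg2, 10.6% of genes), the edgeR likelihood ratio test 2 (Fos and Dusp1, 9.6%) and the edgeR quasi-likelihood test none (6.62%).

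**Figure D2:**
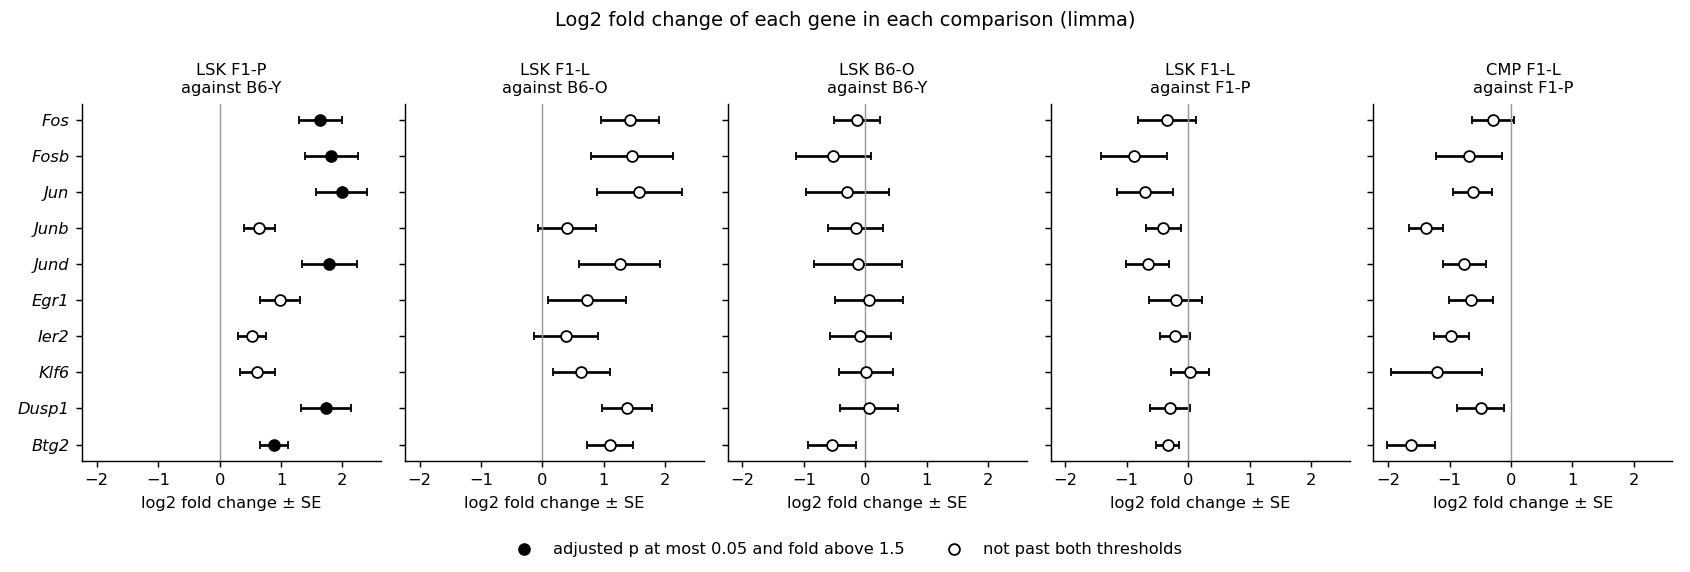
Log2 fold change (limma) with its SE for each of the 10 genes in the 5 comparisons, filled where the adjusted p was at most 0.05 and the fold above 1.5. All 10 estimates lay above 0 in both strain comparisons and below 0 in CMP, and filled points, 6 of them, are seen in F1-P against B6-Y alone.

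Stage within the NZBW/F1 mice was compared next. In LSK, 9 of the 10 genes were lower in F1-L than in F1-P and Klf6 was 0.03 higher on the log2 scale, with a median log2 fold change of -0.34. limma called none of them, against 0.0279% of 14332 genes in either direction, and none reached an unadjusted p below 0.05 (12.8% of all genes). No count test called a member either, against 0.0209% of genes with edgeR quasi-likelihood, 4.6% with the likelihood ratio test and 5.12% with DESeq2. Fosb showed the largest estimate, at -0.88 ± 0.53 (adjusted p = 0.557), with the F1-L values of 1336, 3095 and 3924 overlapping the F1-P values given above, and Jun followed at -0.70 ± 0.46 (adjusted p = 0.593). F1-L replicate 1 was the lowest LSK sample of its group for all 10. Without it, Fos, Egr1 and Ier2 changed sign. The SE of the 10 estimates ran from 0.19 (Btg2) to 0.53 (Fosb) on the log2 scale.

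Between the ages in C57BL/6 mice, B6-O against B6-Y, 7 genes were lower and 3 higher, the median log2 fold change was -0.13, and the estimates ran from -0.54 (Btg2, ± 0.39) to 0.06 (Dusp1, ± 0.48). limma called none of the 10 and none of the 14005 genes tested (0.0%), with 6.62% of genes and no member at an unadjusted p below 0.05, while the edgeR likelihood ratio test called 115 genes (0.821%), DESeq2 207 (1.48%) and edgeR quasi-likelihood none, no member among them. The difference between the stage effect in NZBW/F1 and the age effect in C57BL/6 was tested as an interaction. Its estimates for the members ran from -0.53 ± 0.89 (Jund) to 0.21 ± 0.48 (Btg2), all with an adjusted p of 0.977 or more. limma called none of 15084 genes there (0.0%), with 3.92% at an unadjusted p below 0.05. The likelihood ratio test called 10 genes (0.0663%), DESeq2 29 (0.192%) and edgeR quasi-likelihood none, again without a member.

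The 10 genes mostly ranked the samples of a group alike. All 10 were lowest in B6-Y replicate 1 (where 30.4% of all 15084 genes were lowest), while their highest sample was split between replicate 2 for 4 genes and replicate 3 for 6. All 10 were lowest in B6-O replicate 2 (29.2%) and highest in B6-O replicate 3 (48.0%), and, in F1-L LSK, lowest in replicate 1 (39.9%) and highest in replicate 3 (28.6%). In F1-P LSK, 8 were lowest in replicate 1 (all but Junb and Ier2) and 8 highest in replicate 2 (all but Fos and Egr1). In CMP, all 10 were lowest in F1-P replicate 1 (41.7% of 12926 genes) and 9 highest in F1-P replicate 2 (16.3%). F1-L CMP had no common lowest sample, since 5 genes (Fos, Fosb, Jund, Klf6 and Dusp1) were lowest in replicate 1 and the other 5 in replicate 2, although 9 were highest in replicate 3. The genes of 1 sample share that sample, so these counts describe libraries and not independent events.
The spread within groups was wide. Pooled over the 4 LSK groups, the SD of log2(value + 1) within a group ran from 0.48 (Btg2) to 0.92 (Jund), beside a median of 0.25 over all genes, which placed Btg2 at percentile 89.0 and Jund at percentile 97.6. Among the 4793 LSK genes with a mean value of at least 50 the median was 0.22, and Btg2 and Jund stood at percentiles 92.1 and 97.0. In CMP it ran from 0.42 (Junb, percentile 82.5) to 1.15 (Klf6, percentile 99.02) beside a median of 0.20, or percentiles 91.6 and 99.4 among the 5090 CMP genes at 50 or more. By the SD of the mean over the members B6-O LSK was the widest group (0.96), though Klf6 had its widest range, 7.05-fold, in F1-P CMP, and among LSK groups Dusp1 spread most in B6-Y and Fos in F1-L. Jund in B6-O measured 82.9, 46.5 and 304, a 6.54-fold range among samples of 1 label, and Jun a 6.02-fold range, whereas Ier2 in F1-P LSK kept within 1.22-fold.

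**Figure D3:**
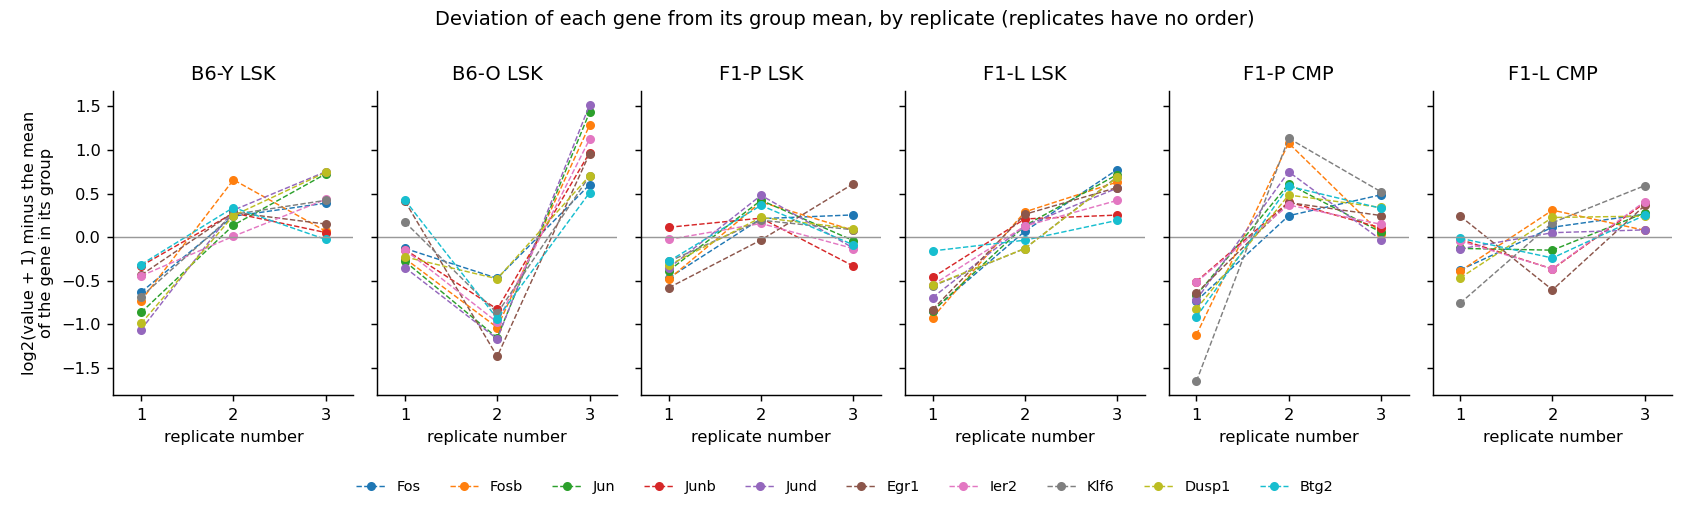
Each gene's log2(value + 1) minus its mean in its group, for the 3 replicates of each of the 6 groups; lines join the samples of a gene and carry no order in time. In B6-O LSK all 10 genes are lowest in replicate 2 and highest in replicate 3, and in F1-P CMP all 10 are lowest in replicate 1.

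Over the 12 LSK samples, each member correlated with the mean of the other 9 at a Pearson r between 0.88 (Ier2) and 0.99 (Jun), and over the 6 CMP samples between 0.81 (Fos) and 0.98 (Jun). These are descriptions over samples that share groups and libraries. Outside the list, the 10 genes whose log2 values followed the mean of the members most closely over the 12 LSK samples (of 11316 genes compared) were Nfkbia (r = 0.970), which encodes an inhibitor of NF-kB, the immunoglobulin kappa gene Igkv19-93 (0.963), Rhob (0.962), the heat shock co-chaperone gene Dnajb1 (0.958), Igkv9-120 (0.957), Zfp36 (0.956), whose protein speeds decay of cytokine messages, Cd74 (0.953), the plasma cell receptor gene Tnfrsf17 (0.948), Ier5 (0.947) and Rgcc (0.945). Taken on deviations from the group means, so that group differences were removed, Zfp36 (0.981), Dnajb1 (0.973) and Klf2 (0.960) came first. Over the 6 CMP samples Mcl1, a survival gene, came first (0.994, of 10322 genes), followed by Tle3 (0.992) and the ubiquitin gene Ubb (0.991).

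The balance among AP-1 genes was read as ratios of deposited values, which are comparable between samples but not between genes of different length. Jund stood at 0.138 to 0.204 of Jun in all 18 samples, so that the pair kept nearly 1 proportion while Jun itself ranged from 248 to 3603. Junb to Jun was less constant. It was 0.849 to 1.96 in the 6 C57BL/6 LSK samples, 0.437 to 0.859 in the 6 NZBW/F1 LSK samples, 0.503 to 0.647 in F1-P CMP and 0.293 to 0.370 in F1-L CMP. Fosb to Fos was 0.813 to 2.10 over LSK and fell between 0.590 and 0.769 in 5 of the 6 CMP samples, F1-P replicate 2 standing at 1.57.

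In CMP, where NZBW/F1 mice alone were sampled, all 10 genes were lower in F1-L than in F1-P, with a median log2 fold change of -0.72 beside 0.04 over all genes. limma called none of them and 0.00774% of the 12926 genes in this direction. At an unadjusted p below 0.05, and also without overlap between the groups, there were 3, Btg2, Junb and Ier2, where 5.25% of all genes reached that p in this direction and 6.57% did not overlap. Btg2 had the largest estimate. Its values were 37.2, 31.7 and 44.9 in F1-L replicates 1, 2 and 3 and 62.2, 178 and 149 in F1-P, so the spread lay mostly in F1-P (-1.63 ± 0.39 on the log2 scale, limma, adjusted p = 0.360). Junb measured 123, 96.7 and 164 in F1-L against 230, 433 and 353 in F1-P (-1.38 ± 0.28, adjusted p = 0.353). Ier2 stood at 127, 101 and 174 in F1-L and at 179.5, 332 and 285 in F1-P, where the highest F1-L sample nearly met the lowest F1-P sample (-0.97 ± 0.28, adjusted p = 0.404).
The other 7 overlapped. Klf6 had a large but loose estimate of -1.21 ± 0.74, since its F1-P samples read 43.2, 305 and 199. Fos was nearest to no change, at 370, 521 and 578 in F1-L and 355, 700 and 827 in F1-P (-0.29 ± 0.34). F1-P replicate 1 was the low sample throughout, near the F1-L values, and without it Btg2, Junb and Ier2 passed in limma (adjusted p from 0.0114 to 0.0483), as did 3.1% of genes in this direction. With all 6 samples the same 3 genes were called by DESeq2 (2.33% of genes) and by the edgeR likelihood ratio test (2.11%), and none by edgeR quasi-likelihood (0.00774%).

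Levels in CMP and LSK are set side by side only, because the tables were normalized separately. In the F1-L mice every LSK sample lay above every CMP sample for all 10 genes, and in the F1-P mice for 9 of the 10, Klf6 being the exception. The share of all genes that did so was not computed, so these counts do not set the members apart from other genes. The ratio of the LSK to the CMP mean ran from 2.89 (Ier2) to 8.71 (Junb) in F1-L mice and from 1.46 (Klf6) to 7.73 (Fosb) in F1-P mice. Whether the stage effect in CMP differed from that in LSK was tested as an interaction, since each effect is taken within its own table. The estimates, CMP minus LSK, were -1.30 ± 0.46 for Btg2 (limma, adjusted p = 0.604), -0.98 ± 0.40 for Junb (0.681) and -0.76 ± 0.40 for Ier2 (0.744), while those of Fos, Fosb and Jun lay between 0.05 and 0.20 with an SE of 0.57 to 0.74. None of the 10 and none of 12627 genes passed (0.0%), with 2 members, Btg2 and Junb, and 4.89% of genes lower at an unadjusted p below 0.05. The likelihood ratio test called 214 genes (1.69%) and DESeq2 241 (1.91%), no member among them, and edgeR quasi-likelihood none. Without F1-P CMP replicate 1, Btg2 passed in limma (adjusted p = 0.00698), as did 2.62% of genes in this direction.

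Other genes of the same response were counted in lists chosen with earlier results known. Of 17 other immediate early transcription factor genes tested in F1-P against B6-Y LSK, 7 were higher and 10 lower, with a median of -0.08, and Klf4 (0.93 ± 0.26, limma, adjusted p = 0.0459) and Ier5 (1.05 ± 0.28, adjusted p = 0.0377) passed. Nr4a1, an orphan nuclear receptor gene named here after its values were seen, had values of 1791 to 2389 in B6-Y and of 749 to 1738 in F1-P, a log2 difference of -0.87 ± 0.34 (adjusted p = 0.121). In F1-L against B6-O, 8 of 17 were higher and none passed. Of 16 feedback genes, 1 passed in each strain comparison. It was Zfp36l1, whose protein destabilises messages, at 28.2 to 71.5 in C57BL/6 LSK and 123 to 368 in NZBW/F1 LSK (2.08 ± 0.29 in F1-P against B6-Y, adjusted p = 0.00258, and 1.85 ± 0.23 in F1-L against B6-O, adjusted p = 0.00283).
None of the AP-1 partner genes of the ATF, BATF, MAF and JDP families (10 and 11 tested) and none of 16 MAP kinase pathway genes passed in either strain comparison, their medians running from -0.11 to 0.25. Of the p53 targets, to which Btg2 also belongs, Trp53inp1 (2.22 ± 0.39, adjusted p = 0.00720) and Zmat3 (0.98 ± 0.22, adjusted p = 0.0218) passed among 9 in F1-P against B6-Y, and Trp53inp1 among 10 in F1-L against B6-O (1.96 ± 0.17, adjusted p = 0.000763). Of 7 glucocorticoid responsive genes, Klf9 fell in F1-P against B6-Y (-0.83 ± 0.23, adjusted p = 0.0452).
In CMP, 16 of the 17 other immediate early transcription factor genes were lower in F1-L, with a median of -1.32, and 12 of the 17 had an unadjusted p below 0.05 in either direction, against 9.80% of all genes. None passed the adjusted threshold in limma or in edgeR quasi-likelihood, while 11 passed with DESeq2 and 11 with the likelihood ratio test, Myc being higher and 10 lower in both, and limma called 9 of 15, all lower, without F1-P CMP replicate 1. The largest estimates among those with a mean of at least 5 were those of Nr4a3 (-3.71 ± 0.47, limma, adjusted p = 0.283), Egr3 (-2.68 ± 0.44, adjusted p = 0.352) and Maff (-2.61 ± 0.37, adjusted p = 0.283), and Myc was the 1 gene that was higher (0.63 ± 0.13, adjusted p = 0.353). Of 16 feedback genes 13 were lower, with a median of -0.83, led by the phosphatase gene Dusp5 (-2.54 ± 0.48, adjusted p = 0.352), and none passed in limma, against 4 in the likelihood ratio test, 5 in DESeq2 and 7 in limma without F1-P CMP replicate 1, all lower. No AP-1 partner (7 tested), MAP kinase pathway gene (16), p53 target (10) or glucocorticoid responsive gene (7) passed in limma in CMP, where limma called 1 gene in all. DESeq2 called 1 AP-1 partner, 2 p53 targets and 1 glucocorticoid responsive gene, and the likelihood ratio test 2 p53 targets. Without F1-P CMP replicate 1, limma called 2 p53 targets and 2 glucocorticoid responsive genes. All of these were lower, and no MAP kinase pathway gene was called in these fits.

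Markers of other cell types moved with these results, and their part in them was not tested. All 8 plasma cell markers (Sdc1, Xbp1, Jchain, Mzb1, Prdm1, Irf4, Tnfrsf17 and Derl3) rose in F1-P against B6-Y LSK and 7 of 8 in F1-L against B6-O, with medians of 3.40 and 3.53 on the log2 scale. Their summed value was 788 to 1987 in B6-Y, 253 to 2529 in B6-O, 14635 to 37905 in F1-P and 9742 to 13036 in F1-L. Within each LSK group the sample lowest in the members was also lowest in the mean of these markers, and none of the 8 was at 0 in any LSK sample. In CMP the sum was 90.2 to 309 in F1-P and 65.3 to 110 in F1-L. T and NK cell markers also passed, 5 of 8 in F1-P against B6-Y and 3 of 8 in F1-L against B6-O, their sum running from 49.9 to 119 in C57BL/6 and from 137 to 267 in NZBW/F1 LSK.
Mature neutrophil markers, 11 in all, followed the members in some LSK groups and not in others. Their sum in F1-L replicates 1, 2 and 3 was 12373, 4905 and 1983, the reverse of the order of the members, whereas in B6-O it was 1736, 832 and 10719, the same order as the members. It was 499, 5441 and 485 in B6-Y, and in F1-P it was 301, 526 and 1281, lowest in the replicate with the lowest sum of the members. Between groups, 10 of the 11 were lower in F1-P than in B6-Y (median -0.72 on the log2 scale) and all 11 were higher in F1-L than in B6-O (1.15), none of them past the thresholds in limma. In F1-L against F1-P LSK, where 9 of the 10 members were lower, all 11 were higher (median 3.00). All 11 had an unadjusted limma p below 0.05 there (12.8% of genes in either direction). limma called none of them, the likelihood ratio test 11 (4.6% of genes) and DESeq2 10 (5.12%). In that comparison 9 of 10 monocyte and macrophage markers were also higher (median 1.32). In CMP the neutrophil markers moved with the members. The sum was 315, 6453 and 8442 in F1-P replicates 1, 2 and 3 and 64.2 to 431 in F1-L, all 11 were lower in F1-L at an unadjusted p below 0.05, with a median of -4.21 on the log2 scale, and none was at 0. None of the 11 passed in limma, while the likelihood ratio test and DESeq2 called all 11. The 7 B cell markers were lower in F1-L CMP too (sum 11.0 to 27.3 against 44.6 to 191), with none called in limma and 6 in both the likelihood ratio test and DESeq2. All 10 monocyte and macrophage markers were lower there as well (median -1.01, sum 197, 1336 and 1793 in F1-P replicates 1, 2 and 3 against 132 to 399 in F1-L), as were 5 of 6 erythroid markers (median -2.39, sum 607 to 1240 against 344 to 551). limma called none of either list, the likelihood ratio test 1 and 4, and DESeq2 2 and 4.
Of the remaining lists in F1-P against B6-Y, Cd79a and Cd79b of 7 B cell genes rose in limma. So did Ly6c2 of 10 monocyte and macrophage genes, Ccr9 of 4 plasmacytoid dendritic cell genes and Ly6a of 10 progenitor genes. Most genes of these lists were lower, however. These were 4 of the 7 B cell genes (median -0.22) and 7 of the 10 monocyte and macrophage genes (median -0.38). Of the plasmacytoid dendritic cell genes 3 of the 4 were lower (median -0.16). Cx3cr1 (monocytes), Siglech (plasmacytoid dendritic cells), Hba-a2 of 7 erythroid genes, Pecam1 of 5 stromal and endothelial genes, and the progenitor genes Hlf, Cd34 and Flt3 fell. Of the progenitor genes 9 of the 10 were lower, with a median of -0.47. By contrast, 6 of the 7 erythroid genes (median 0.47) and 4 of the 5 stromal and endothelial genes (median 0.90) were higher. In F1-L against B6-O, all 10 monocyte and macrophage genes were higher, with a median of 1.61, and 4 rose (Ly6c2, C1qa, Ccr2 and Cd14), beside a background of 7.84% of genes. Their sum was 418, 262 and 1336 in B6-O replicates 1, 2 and 3 and 1008 to 2117 in F1-L. In the same comparison Cd79a, Cdh5 and Ly6a rose while Hba-a2, Hlf and Cd34 fell. All 7 B cell genes and 5 of 6 stromal and endothelial genes were higher there. So were 4 of 7 erythroid genes (median 0.08), while 9 of the 10 progenitor genes were lower (median -0.36). Col1a1 fell in F1-L CMP, and no mast cell or basophil gene passed in any of the 5 comparisons by limma, although Prss34 was called as lower by all 3 count tests in LSK of F1-P against B6-Y.
Heat shock genes are induced by heat and by other stress that damages proteins. Of 12 tested in F1-P against B6-Y, Hsph1 (48.3 to 106 against 168 to 207, 1.23 ± 0.27, adjusted p = 0.0185) and the scarce Hspb1 (0.093 to 0.608 against 2.35 to 5.31, 1.70 ± 0.27, adjusted p = 0.00460) passed, and the median was 0.32. None of 12 passed in F1-L against B6-O, and in CMP 8 of 11 were higher in F1-L, with a median of 0.06. The inducible gene Hspa1b ran from 0.411 to 74.3 in B6-O LSK and from 20.3 to 28.1 in F1-P LSK. The mean of the heat shock list was highest in B6-O replicate 3 (6.98) and lowest in B6-O replicate 2 (5.63), as the members were, whereas in F1-P LSK it stayed between 6.52 and 6.63.

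**Figure D4:**
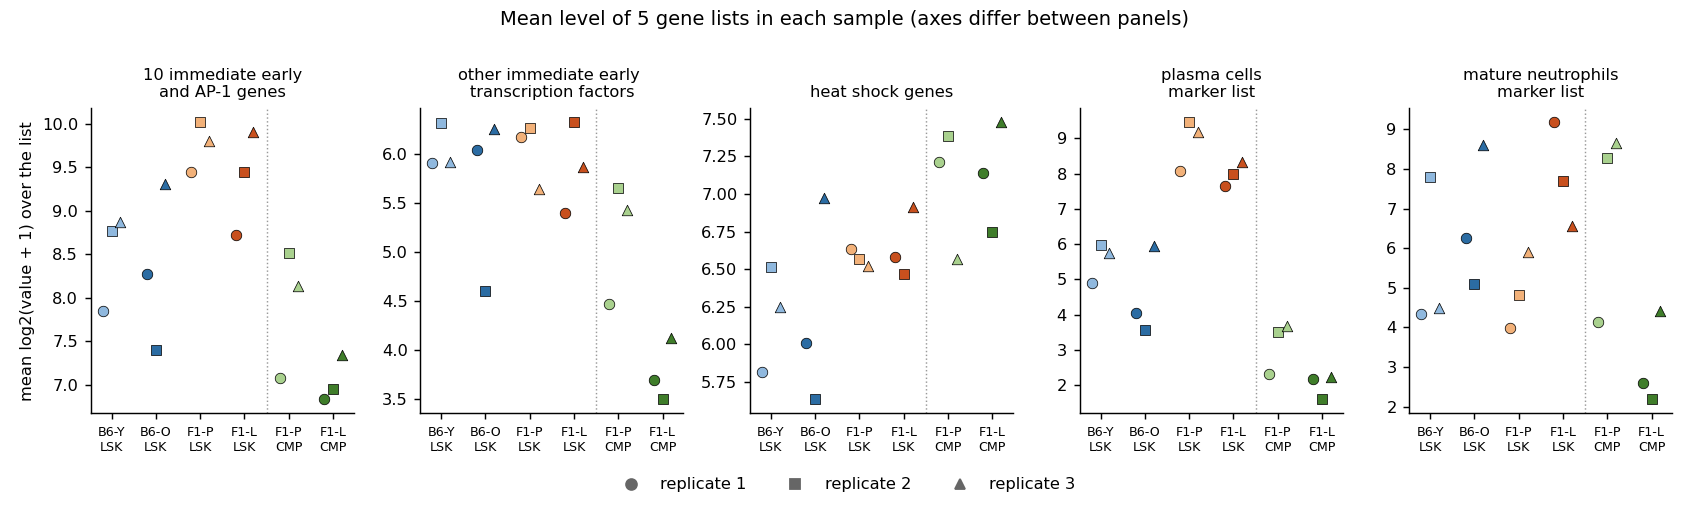
Mean log2(value + 1) of the 10 members and of 4 other lists in each of the 18 samples, by group, with marker shape giving the replicate and axes that differ between panels. In F1-L LSK the plasma cell list keeps the order of the members, the neutrophil list runs the other way from 9.18 in replicate 1 to 6.55 in replicate 3, and in F1-P CMP the neutrophil list is lower in replicate 1 (4.13) than in replicates 2 (8.27) and 3 (8.65).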

How the data were processed

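RNA of sorted LSK and CMP samples was sequenced on a NextSeq 500 with 75-base reads. Per the submitters' processing notes, STAR 2.6, edgeR and the mouse build mm10 (GRCm38) were used. The authors deposited 1 table per cell type in CPM of a library size scaled between samples, a normalized signal whose column sums ran from 832403 to 1387186. All values (100%) came out as whole reads within 0.05 read. limma 3.58.1 (R 4.3.3, trend) was run on log2(value + 1) for genes with a value of at least 1 in at least 3 samples, with Benjamini-Hochberg adjustment over all genes and calls where the adjusted p did not exceed 0.05 and the change was over 1.5-fold. edgeR 4.0.16 and DESeq2 1.42.0 were run on the recovered reads as alternatives. Scripts were tested on simulated data.

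Members, lists and tests were chosen with earlier results of these data known. Named beyond the members were list genes past the thresholds by limma or in all 3 count tests, otherwise up to 3 genes of a list with the largest change and a mean of at least 5, and the 10 genes most alike. Correlations are Pearson's r.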

Additional observations from a re-analysis of the deposited data

How the results depend on the processing

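Calls among the members moved with single samples, with the joint fit of all LSK samples and with the count model. The 10 members kept their higher level in F1-P against B6-Y and their lower level in F1-L CMP under every alternative run. In F1-P against B6-Y, 6 were called in limma (1442 of 14380 genes as higher). Fitting all 12 LSK samples together called 3 (1534 of 15084 genes). Leaving out single samples gave 0 to 7, the 7 without F1-P replicate 1 (1260 of 13901 genes). The 0 came without F1-P replicate 2 (588 of 13852 genes) or without F1-P replicate 3 (654 of 13852). In F1-L against B6-O, 0 were called (7.84% of all genes as higher), against 1 with the replicate number as a block (Dusp1, 1013 of 14381 genes). The edgeR likelihood ratio test called 2 (9.6%), DESeq2 3 (10.6%) and the fit of all 12 LSK samples 2 (1348 of 15084 genes). Without single samples 0 to 5 were called, the 5 without B6-O replicate 3 (11.2%). In CMP, 0 were called (0.00774% of genes as lower), against 3 with the edgeR likelihood ratio test (2.11%) and 3 with DESeq2 (2.33%). Without single samples 0 to 3 were called, the 3 without F1-P CMP replicate 1 (3.1%). For the difference between CMP and LSK it was 0 to 1, the 1 also without F1-P CMP replicate 1 (2.62%). The cause of these differences was not tested. Over all genes the likelihood ratio test and DESeq2 called 659 and 734 in F1-L against F1-P LSK, where limma called 4, and 318 and 351 in CMP, where limma called 1.

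Whether replicate numbers pair the samples is not stated in the labels, and correlations over 3 samples per group cannot settle it. Deviations of same-numbered samples 1, 2 and 3 correlated at 0.33, 0.32 and 0.07 in F1-P against B6-Y. They correlated at 0.47, -0.36 and 0.32 in B6-O against B6-Y and at -0.45, -0.32 and 0.62 in CMP. In F1-L against F1-P LSK and F1-L against B6-O they ran from -0.04 to 0.06. In no comparison did all 3 pairs exceed 0.1. With the block, 8 members were called in F1-P against B6-Y, where 1671 of 14380 genes were called as higher. In either direction 2787 genes were called there in place of 2331, and 1380 in place of 1667 in F1-L against B6-O.

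Signs turned only for estimates that were called under no setting. In B6-O against B6-Y, Klf6 became -0.010 with median of ratios scaling, and with both edgeR tests Junb became 0.015, Jund 0.14, Ier2 0.14 and Dusp1 -0.00922 (quasi-likelihood) and -0.00925 (likelihood ratio). With DESeq2 Jund became 0.11, Ier2 0.10 and Dusp1 -0.033. Klf6 became -0.0049 in the difference between stage and age effects when scaled without immunoglobulin genes. For CMP minus LSK, Fos, Fosb and Jun became -0.12, -0.13 and -0.099 with edgeR and -0.12, -0.12 and -0.0954 with DESeq2. Leaving out single samples turned further signs, over the following ranges. In F1-L against F1-P LSK these were Fos (-0.73 to 0.077), Egr1 (-0.49 to 0.22), Ier2 (-0.42 to 0.064) and Klf6 (-0.31 to 0.31). In F1-L against B6-O they were Junb (-0.013 to 0.88) and Ier2 (-0.10 to 0.95). In B6-O against B6-Y they were Fos (-0.45 to 0.10), Jun (-1.01 to 0.28), Junb (-0.64 to 0.26), Jund (-0.88 to 0.46), Egr1 (-0.42 to 0.74), Ier2 (-0.64 to 0.41), Klf6 (-0.34 to 0.45) and Dusp1 (-0.43 to 0.43). In the difference between stage and age effects they were Fos (-0.60 to 0.21), Fosb (-0.88 to 0.28), Jun (-0.98 to 0.31), Junb (-0.66 to 0.24), Jund (-1.12 to 0.23), Egr1 (-0.94 to 0.22), Ier2 (-0.62 to 0.43), Klf6 (-0.42 to 0.37), Dusp1 (-0.73 to 0.14) and Btg2 (-0.26 to 0.47). In the difference between CMP and LSK they were Fos (-0.37 to 0.44), Fosb (-0.36 to 0.74), Jun (-0.35 to 0.44), Jund (-0.47 to 0.27) and Dusp1 (-0.61 to 0.14).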
